A study of Homo sapiens with 24 samples.

Results

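The subunits of respiratory complex I that are encoded in the nucleus were described by the rows of the expression table whose symbol is NDUFA, NDUFB, NDUFC, NDUFS or NDUFV followed by a number, or NDUFAB1. The rule took 40 of 57773 rows, which carry 38 symbols, because NDUFA7 and NDUFB8 each have a second row. The second NDUFA7 row stayed at or below 0.41 TPM (an abundance per transcript length, scaled to a fixed total per library) and the second NDUFB8 row was listed at 0 in all 24 libraries. The other 38 rows, 1 per symbol, passed the filter of at least 1 TPM in at least 2 libraries, so every symbol was tested. One of them, NDUFA4, keeps its complex I name but is now assigned to complex IV, which leaves 37 complex I subunits.

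Complex I is the entry point of electrons into the mitochondrial respiratory chain: its matrix arm takes electrons from NADH through a flavin and a row of iron-sulfur clusters to ubiquinone, and its membrane arm pumps protons. A core that is conserved from bacteria carries the chemistry. The accessory subunits stabilise the complex, and assembly factors build it without staying in it.

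The cells were SKOV3.ip1, an established ovarian cancer line of human origin, at passage 28-40. Their RNA was freed of ribosomal RNA and copied with TGIRT, a heat-stable reverse transcriptase, before sequencing. RBFOX2, hnRNPC, hnRNPM and SRSF1, which bind RNA and act in splicing, were knocked down separately, each by a pair of siRNAs (100 nM, RNA taken at 72 h). The groups were RBFOX2 siRNA_1 and siRNA_2, hnRNPC siRNA_2 and siRNA_3, hnRNPM siRNA_1 and siRNA_3, SRSF1 siRNA_1 and siRNA_3, and 4 mock sets that received Lipofectamine and no siRNA. Every group held 2 libraries, which the series calls biological replicates. The mock libraries n4 and n5 were the control of both RBFOX2 siRNAs, the oct set that of both hnRNPC siRNAs and of hnRNPM siRNA_1, the jan set that of hnRNPM siRNA_3 and SRSF1 siRNA_3, and the nov set that of SRSF1 siRNA_1. All cells were of 1 line, with no non-targeting siRNA among the controls analysed here.

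Each depletion was checked on its own target. On the log2 scale RBFOX2 fell by 1.61, HNRNPC by 1.77, HNRNPM by 1.83 and SRSF1 by 2.16, and each call held by limma with adjusted p of at most 6.22e-07. Of 7 epithelial and ovarian carcinoma markers 6 passed the filter, the exception being MUC16. The 8 leukocyte, endothelial and fibroblast markers never exceeded 0.124 TPM as deposited. The number of genes at 1 TPM or more ran from 12637 to 15734 per library, and the read depth is unknown because only TPM were used. The values below are TPM after median-ratio scaling between libraries ("scaled TPM"), fold changes are differences of log2(scaled TPM + 1), and a gene is called when the mean change of both siRNAs has an adjusted p under 0.05 and both have the same sign. In bulk RNA, fewer cells and less RNA per cell cannot be told apart.

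The call that the complex I data turn on concerns NDUFV2, and its reading depends on a near-identical copy. NDUFV2, an iron-sulfur subunit at the tip of the matrix arm where NADH is oxidised, has a processed copy on chromosome 19, NDUFV2P1, that is a separate row of the table. In the GENCODE transcripts the NDUFV2 messenger RNA (930 bases) and the copy (907 bases) align over 693 bases and differ at 12 of them, an identity of 98.3%. The 120 coding bases of NDUFV2 in which the pair differ most (bases 614 to 733 of the coding sequence on chromosome 18, and the copy at chr19:53223973-53224879, GRCh38) are shown because a read from such a stretch can be told apart only at the positions in capitals, which mark the 4 differing bases:
NDUFV2: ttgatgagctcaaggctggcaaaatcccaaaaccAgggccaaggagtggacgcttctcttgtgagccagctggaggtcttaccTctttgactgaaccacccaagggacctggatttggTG
NDUFV2P1: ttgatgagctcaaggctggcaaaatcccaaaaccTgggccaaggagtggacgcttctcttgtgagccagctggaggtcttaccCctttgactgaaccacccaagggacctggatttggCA

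The second sequence feature is shared by several members. RefSeq windows of 300 bases, 250 before and 50 after the gene start in build GRCh38.p14, were matched to 32 of the 38 symbols. The letters AANATGGCG, part of the motif of the transcription factor YY1, were found on either strand in 10 of these 32 windows (31.2%), against 3.37% of 27305 windows of all genes. The matches are printed in the orientation of the motif with up to 10 bases on each side, the match in capitals, and the strand given is that of the printed bases:
NDUFV2 (chr18:9102730-9102748, minus strand): AACATGGCGggccacactg
NDUFS1 (chr2:206159411-206159439, plus strand): tcgcttattcAATATGGCGgcctcggcta
NDUFS3 (chr11:47579079-47579107, plus strand): gcatctgagtAACATGGCGgcggcggcgg
NDUFS7 (chr19:1383914-1383942, plus strand): ggccgaggccAAGATGGCGgtgctgtcag
NDUFS8 (chr11:68030491-68030519, plus strand): tccccaaaccAACATGGCGgccccctaca
NDUFS4 (chr5:53560650-53560678, plus strand): tgcctgcagcAAGATGGCGgcggtgtcaa
NDUFS6 (chr5:1801405-1801433, plus strand): ccagcggcgcAAAATGGCGgcggcgatga
NDUFA6 (chr22:42090729-42090757, minus strand): atgctttggcAAGATGGCGgggagcggcg
NDUFA7 (chr19:8321343-8321371, minus strand): tcgcggacggAAGATGGCGtccgccaccc
NDUFA9 (chr12:4649114-4649142, plus strand): attgtgggaaAAGATGGCGgctgccgcac

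Of these 10 matches, 9 began within the 50 bases after the gene start, and in 7 the ATG of the match is an annotated start codon, so the same letters also belong to the translated message. Those without an annotated start codon were NDUFV2 and NDUFS1, whose matches lie on the strand opposite to the gene, and NDUFS8. An NRF1 motif (GCGCA, any base, GCGC) was present in 18.8% of the members' windows and 6.28% of all windows, an ETS motif (CCGGAAG) in 15.6% and 10.7%, and CCAAT in 25% and 35.7%, each on either strand. The window of NDUFA10 held none of the 4 motifs. These matches describe letters in a window and are not binding data.

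In mock-transfected cells the 38 members spanned a 52.0-fold range of mean level. The highest were membrane-arm accessory subunits: NDUFS5 at 110.7 ± 13.9 scaled TPM (SD, n = 8), NDUFB10 at 93.3 ± 8.61 and NDUFB2 at 75.3 ± 10.9. The lowest were NDUFB8, also of the membrane arm, at 6.19 ± 0.895, NDUFA7 of the matrix arm at 4.68 ± 0.713, and NDUFA9, which sits near the quinone site, at 2.13 ± 0.247. TPM divide by a gene length that is not given in the sources used here, so the order rests on that length as well as on the RNA.

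Neighbours in the order were mostly close. Of the 37 neighbouring pairs, 26 differed by less than the larger of their SDs. The gaps above the SD stood at both ends of the order, NDUFS5 over NDUFB10 and NDUFB10 over NDUFB2 at the top, and NDUFA3 over NDUFB8, NDUFB8 over NDUFA7 and NDUFA7 over NDUFA9 at the bottom. The 7 core subunits lay between 10.7 scaled TPM for NDUFV2 and 74.9 for NDUFS7, so subunits that occur in equal numbers in the complex differed several-fold in listed RNA.

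**Figure D1:**
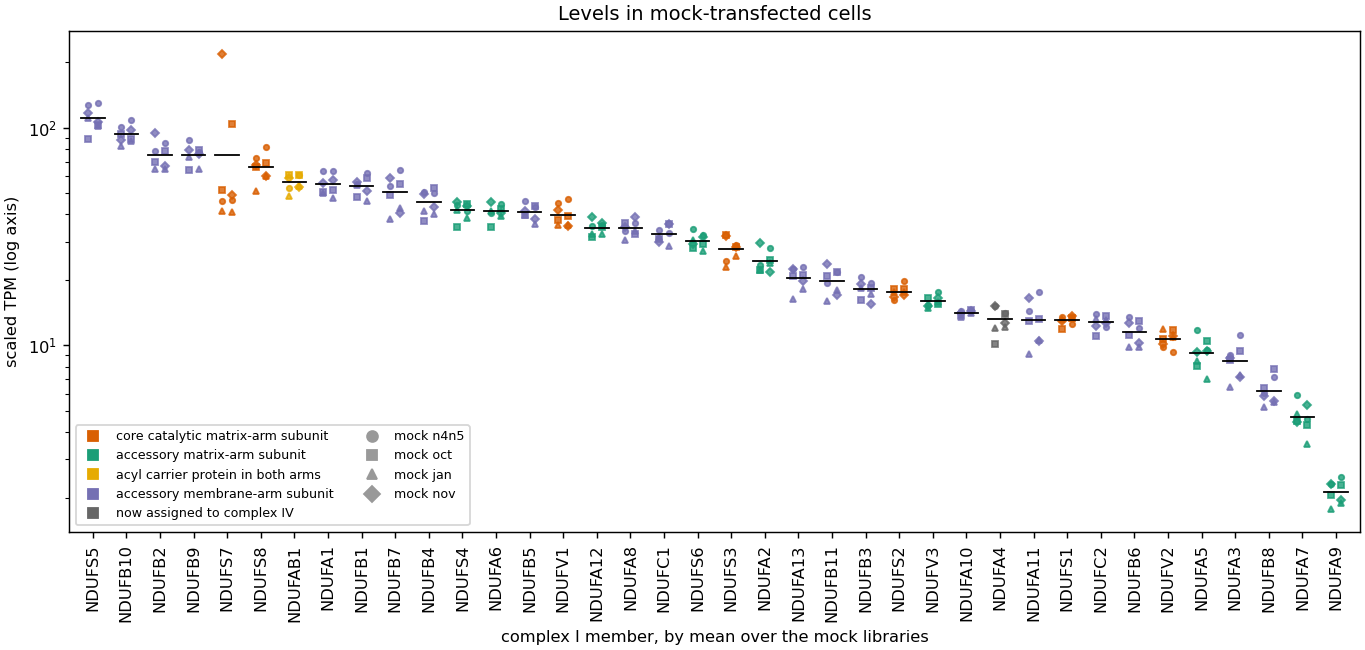
Scaled TPM (log axis) of the 38 tested members in the 8 mock libraries, ordered by mean (black bar); symbols mark the mock set and colours the role. NDUFS5 is highest at 110.7 and NDUFA9 lowest at 2.13, and a single nov library sets NDUFS7 apart at 219.

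The members varied little between libraries. The median SD of a member over the 24 libraries was 0.163 on the log2 scale, against 0.190 for tested genes with a mean in the members' range and 0.202 for all tested genes. Within groups it was 0.117, equal to the 0.117 of tested genes in the members' range, and 0.132 for all tested genes. The summed level of the 37 subunits ran from 1156 to 1521 scaled TPM.

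NDUFS7 was the exception among the core subunits. This iron-sulfur protein, which carries the last cluster before ubiquinone, read 219 and 49.1 scaled TPM in the nov mock libraries, 52.0 and 104 in the oct set, 41.7 and 41.1 in the jan set and 46.2 and 46.5 in the n4 and n5 libraries. Its SD within groups was 0.56 on the log2 scale, and the next highest member, NDUFA7, had 0.18. Over all libraries 9 lay at or above 74.7 and 15 at or below 52.0. Of those 9, 7 were among the 8 libraries compared through the oct set and 2 among the 4 of the nov set, and the 12 libraries of the n4 and n5 and jan sets held none.

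The high NDUFS7 libraries included mock and siRNA libraries alike, among them hnRNPM siRNA_1 at 98.4 and 125 and hnRNPC siRNA_3 at 96.0 and 124. Its change was not called in any depletion, with log2 values from -0.27 to 0.30 and standard errors from 0.354 to 0.434. In the nov mock set the sum of the 37 subunits was 1381 ± 198 (SD, n = 2), and without NDUFS7 it was 1247 ± 78.0. An annotated antisense gene that overlaps NDUFS7 stayed at or below 0.417 scaled TPM. Whether strand was used in counting is not given in the sources used here, and the source of the spread was not tested.

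Depletion of hnRNPM raised 1 member and lowered 0, against 0.359% and 0.677% of all tested genes. That member was NDUFV2. With siRNA_1 its libraries read 15.9 and 16.5 scaled TPM, and the oct mock libraries 10.7 and 11.7. With siRNA_3 they read 15.9 and 16.6, and the jan mock libraries 11.9 and 10.9. All 4 hnRNPM libraries lay above the other 20, which ran from 9.34 to 13.1 with a median of 10.4.

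The rise was 0.49 on the log2 scale (SE 0.0653, 95% interval 0.35 to 0.62, adjusted p = 0.000916), a 1.40-fold increase in scaled TPM + 1. Both siRNAs gave nearly the same value, 0.49 for siRNA_1 and 0.48 for siRNA_3, and the siRNA difference was -0.02 with an adjusted p of 0.999. After the other depletions NDUFV2 was not called: its change was 0.08 (SE 0.0800) for RBFOX2, 0.07 (SE 0.0800) for hnRNPC and -0.10 (SE 0.0653) for SRSF1. An F test across the 4 depletions called NDUFV2 as different (adjusted p = 0.000650) and no other member, against 11.8% of all tested genes. With the replicate number as a block it called 3 members, NDUFV2, NDUFAB1 and NDUFB3, against 23.5% of all tested genes. Without the scaling between libraries the hnRNPM change was 0.42 and was not called (adjusted p = 0.376), and without any 1 of its 8 libraries it stayed called at 0.45 to 0.52.

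The copy did not move with NDUFV2. NDUFV2P1 was listed at 24.4 ± 2.5 scaled TPM in the mock libraries (SD, n = 8), above NDUFV2 itself at 10.7 ± 0.898. It read 20.6 to 24.7 in the hnRNPM libraries and 20.1 to 28.1 in the other 20, and its change after hnRNPM depletion was -0.07 with an adjusted p of 0.858. The ranges overlap. Of the other members, NDUFB1 and NDUFA5 also have a listed copy above 5 scaled TPM in the mock libraries: NDUFB1P1 at 7.96 ± 1.81 beside 54.0 for NDUFB1, and NDUFA5P11 at 5.13 ± 1.06 beside 9.27 for NDUFA5 (SD, n = 8 each). Their levels are uncertain in the same way.

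Summed, the pair read 37.2 to 41.2 in the hnRNPM libraries and 30.7 to 40.2 in the others, which overlap too. In a fit chosen after the values were seen, with the sum in place of NDUFV2, the change was 0.14 (SE 0.0761, adjusted p = 0.564) and was not called. The share of NDUFV2 in the sum separated the groups: 40.1% to 44.6% in the hnRNPM libraries against 27.6% to 34.8% elsewhere. How reads that match both loci were assigned is not given in the sources used here. More NDUFV2 RNA and another division of shared reads between NDUFV2 and NDUFV2P1 cannot be told apart in this table.

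**Figure D2:**
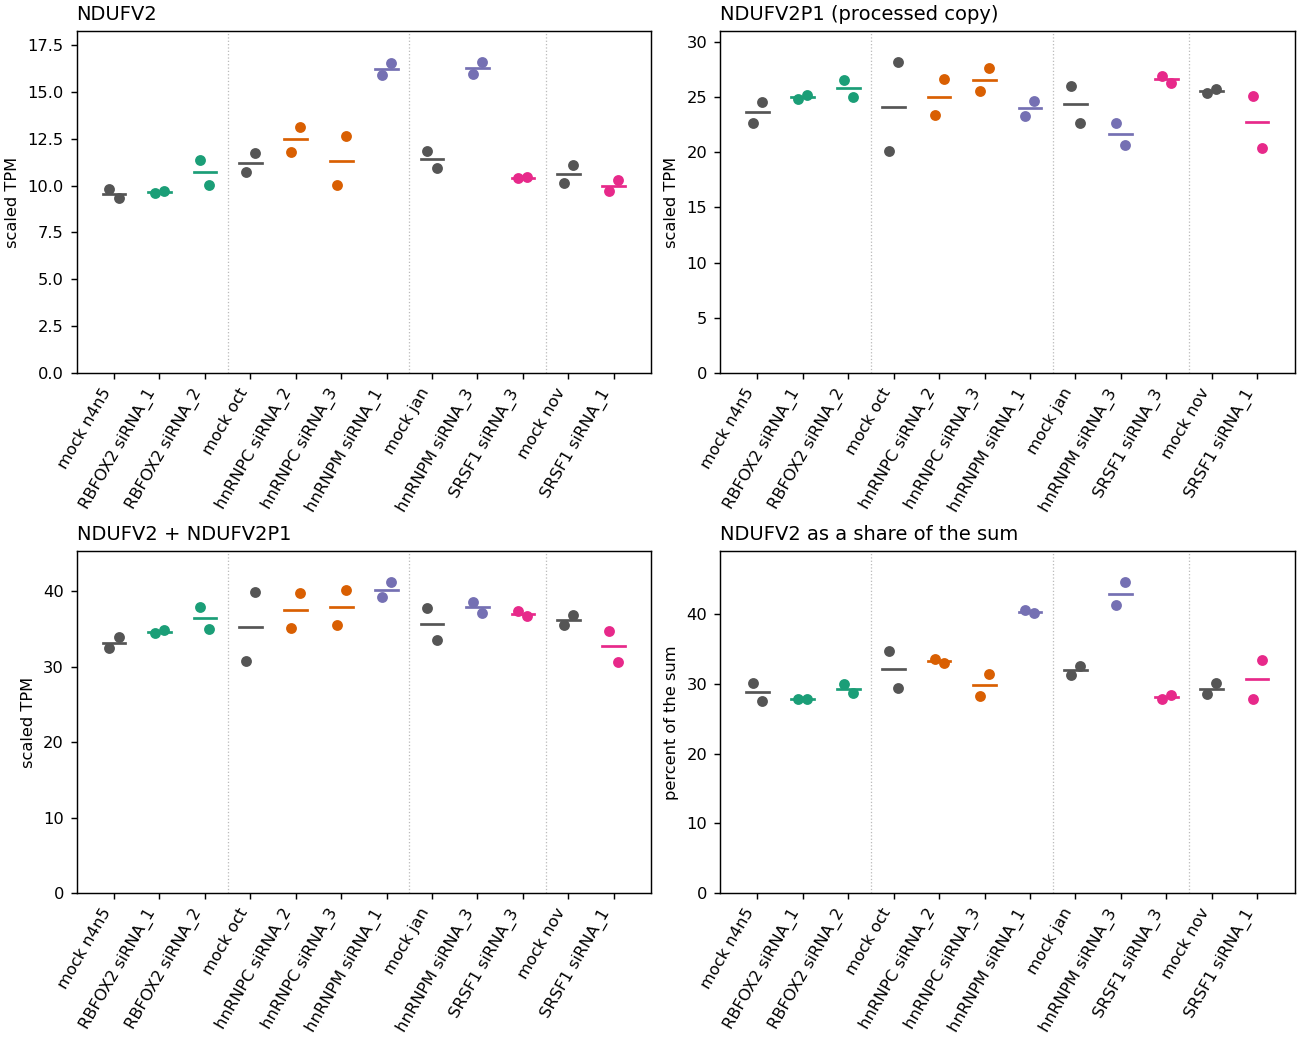
NDUFV2, its processed copy NDUFV2P1 and their sum (scaled TPM) and the share of NDUFV2 in the sum (percent) in all 24 libraries; points are libraries, bars group means, and dotted lines separate the siRNAs that share a mock set. The 4 hnRNPM libraries stand above all others for NDUFV2 (15.9 to 16.6) and for its share, but not for the copy or the sum.

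One more row at the NDUFV2 locus rose after hnRNPM depletion. It carries the symbol RP11-143J12.3 (ENSG00000263847), an antisense gene with 2 exons that both lie within the first intron of NDUFV2 in GENCODE. It read 1.99 and 2.28 scaled TPM with siRNA_1 against 0.634 and 0.917 in the oct mock libraries, and 2.15 and 2.49 with siRNA_3 against 1.54 and 1.39 in the jan set. All 4 values exceeded those of the other 20 libraries, which reached 1.54. The change was 0.63 (SE 0.0895, adjusted p = 0.00159), and it was chosen for description after the values were seen.

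The same row fell by 0.32 after SRSF1 depletion (SE 0.0895, adjusted p = 0.0330), where NDUFV2 was not called and where the siRNA_1 libraries overlapped the nov set. That call was lost without jan mock replicate 1 (adjusted p = 0.115) or 2 (0.0679), nov mock replicate 2 (0.120), siRNA_1 replicate 2 (0.133) or siRNA_3 replicate 2 (0.134). The rise after hnRNPM depletion stayed called in all 8 fits without a library. With only the groups of the comparison in the fit its adjusted p was 0.0564. A second antisense row, listed as RP11-143J12.2 and named NDUFV2-AS1 in GENCODE, had a change of -0.14 after hnRNPM depletion with an adjusted p of 0.692. Without a stated use of strand, reads from an antisense gene and from the intron of NDUFV2 cannot be told apart.

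The other core and accessory members showed no call after hnRNPM depletion. Of the 38, 21 had a change above 0, with a median of 0.01 against -0.00307 over all tested genes. At an unadjusted p under 0.05 stood 3 members, NDUFV2, NDUFS1 and the membrane-arm subunit NDUFB5 (-0.17, SE 0.0630, adjusted p = 0.292). For 36 of 38 members the 95% interval of the change lay within 1.5-fold in either direction. The siRNA difference called 0 members and 0.0412% of all tested genes.

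Depletion of hnRNPC lowered 2 members and raised 0, against 4.34% of all tested genes lower and 2.11% higher. Both were small decreases. NDUFS1, the largest iron-sulfur subunit of the matrix arm, read 10.3 and 9.99 scaled TPM with siRNA_2 and 10.3 and 11.2 with siRNA_3, and 11.8 and 13.4 in the oct mock libraries. NDUFA10, a membrane-arm accessory subunit related to nucleoside kinases, read 11.6 and 10.3 with siRNA_2 and 13.1 and 12.98 with siRNA_3, and 13.8 and 14.5 in the oct mock libraries. In both genes all 4 siRNA libraries lay below both mock libraries.

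NDUFS1 fell by 0.25 (SE 0.0602, adjusted p = 0.0228) and NDUFA10 by 0.23 (SE 0.0601, adjusted p = 0.0321) on the log2 scale. The call of NDUFS1 was lost without siRNA_2 replicate 3 (adjusted p = 0.0590), siRNA_3 replicate 1 (0.0686) or oct mock replicate 3 (0.245). NDUFA10 kept its call in 1 of 6 fits without a library, and lost it without siRNA_2 replicate 3 (0.0905), siRNA_3 replicate 1 (0.0636) or replicate 3 (0.0603) and oct mock replicate 1 (0.0775) or 3 (0.208). Neither was called when only the hnRNPC and oct libraries entered the fit, with adjusted p of 0.351 and 0.364. The gene EEF1B2 overlaps NDUFS1 on the opposite strand at 57.8 to 101.3 scaled TPM, and its change was 0.04 (adjusted p = 0.855).

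The siRNAs against hnRNPC differed in size for NDUFA10, at -0.35 with siRNA_2 and -0.11 with siRNA_3. The difference of 0.24 (SE 0.0694) had an adjusted p of 0.0392. NDUFA10 was the single member called in that difference, against 11.1% of all tested genes, and with the replicate number as a block 4 members and 19.3% of all tested genes were. The NDUFA10 difference was not called without siRNA_2 replicate 3 (0.16, adjusted p = 0.339), siRNA_3 replicate 1 (0.23, adjusted p = 0.137) or siRNA_3 replicate 3 (0.24, adjusted p = 0.122). For NDUFS1 the values were -0.29 and -0.21, and the difference was not called (adjusted p = 0.575).

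Other members leaned upward or downward without a call. NDUFA4 had the highest change, 0.37 (SE 0.121, adjusted p = 0.0810), and with the replicate number as a block it was called (adjusted p = 0.0223). It was 0.16 without oct mock replicate 1 (adjusted p = 0.564) and 0.59 without oct mock replicate 3 (adjusted p = 0.0369), and 2 of 6 fits without a library called it. The acyl carrier protein NDUFAB1, which also serves mitochondrial fatty acid synthesis, had 0.19 (adjusted p = 0.190). The matrix-arm subunit NDUFA12 had 0.19 (adjusted p = 0.193), and the membrane-arm subunit NDUFA8 had -0.17 (adjusted p = 0.223). The median of all 38 was 0.02, against -0.01 over all tested genes, and 36 of the 38 intervals lay within 1.5-fold.

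**Figure D3:**
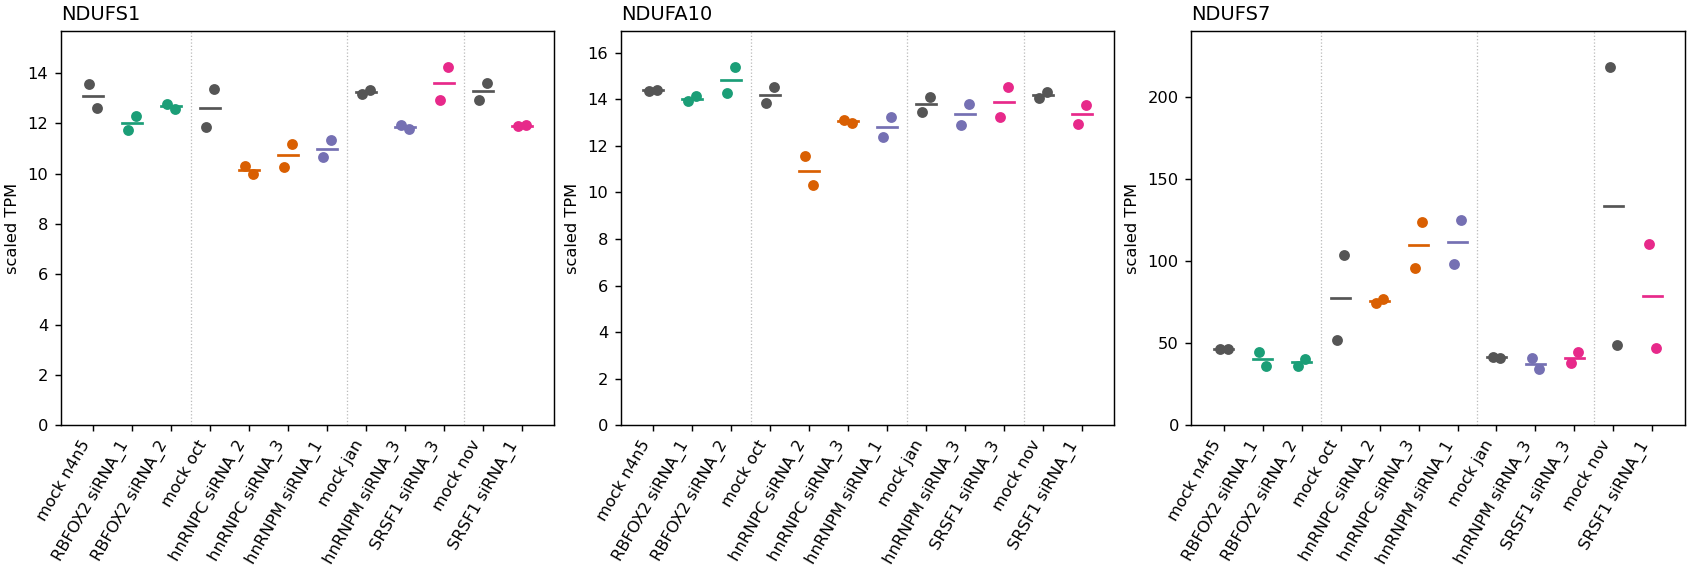
Scaled TPM of NDUFS1, NDUFA10 and NDUFS7 in all 24 libraries; points are libraries, bars group means, and dotted lines separate the siRNAs that share a mock set. The hnRNPC libraries lie below the oct mock libraries for NDUFS1 (9.99 to 11.2 against 11.8 and 13.4) and NDUFA10, and NDUFS7 varies most between libraries of the same group.

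Depletion of RBFOX2 raised 0 members and lowered 0, against 0.0235% and 0.0883% of all tested genes, and 1 member stood at an unadjusted p under 0.05. That member was NDUFA3, a small membrane-arm subunit, at 12.2 and 12.9 scaled TPM with siRNA_1 and 11.1 and 11.9 with siRNA_2, and 9.05 and 11.2 in the n4 and n5 mock libraries. The lower siRNA_2 library and the higher mock library were level, and the groups overlap there. The change was 0.24 (SE 0.107, adjusted p = 0.386), and leaving out n4 or n5 moved it to 0.10 or 0.37.

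NDUFA7, the next by p, read 6.69 and 8.09 with siRNA_1, 5.42 and 6.63 with siRNA_2, and 5.92 and 4.61 in the mock libraries. These groups overlap, and the change was 0.30 (SE 0.145, adjusted p = 0.434), or 0.45 without n4 and 0.14 without n5. Of the 38 members, 26 had a change above 0, and their median was 0.06 against 0.00363 over all tested genes. The summed level of the 37 subunits was 1406 ± 0.650 with siRNA_1 and 1484 ± 20.7 with siRNA_2 (SD, n = 2 each), beside 1388 ± 39.1 in the n4 and n5 libraries and 1162 ± 8.29 in the jan set. With all 8 mock libraries as the control 14 of the 38 members rose and 0 fell, and 14.3% of all tested genes rose and 15.1% fell. Over protein-coding genes, the rank correlation of a library's deviations with GC content was 0.357 to 0.579 in the 4 RBFOX2 libraries, -0.191 and 0.534 in n4 and n5, and -0.593 to 0.386 in the other mock libraries. With a GC correction the members' median after RBFOX2 depletion was 0.037, against -0.00189 over all tested genes. The part of GC content in these values was not tested further. The siRNA difference called 0 members and 1.51% of all tested genes.

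Depletion of SRSF1 also raised 0 members and lowered 0, although 4.36% of all tested genes rose and 5.01% fell. The smallest p belonged to NDUFB9, a subunit at the far end of the membrane arm, at 80.4 and 77.2 scaled TPM with siRNA_1 against 79.5 and 75.9 in the nov set, and 91.5 and 90.7 with siRNA_3 against 73.3 and 64.7 in the jan set. Only the siRNA_3 libraries lay above their mock libraries throughout. The mean change was 0.21 (SE 0.0805, adjusted p = 0.123), and with the replicate number as a block the adjusted p was 0.0157.

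NDUFA7 showed the same split: 5.36 and 4.53 with siRNA_1 beside 4.43 and 5.32 in the nov set, and 6.80 and 6.44 with siRNA_3 beside 4.84 and 3.53 in the jan set. Its mean change was 0.29 (SE 0.118, adjusted p = 0.146). Over all members, 14 of 38 had a change above 0 with siRNA_1, with a median of -0.08, and 32 of 38 with siRNA_3, with a median of 0.14. Over all tested genes the medians were -0.01 and 0.01.

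The difference between the SRSF1 siRNAs called 0 members and 0.00588% of all tested genes. Of the mock sets behind it, the jan set had the lowest summed subunit level of all 4 mock sets, 1162 ± 8.29 against 1381 ± 198 in the nov set. The part of the mock sets in this split was not tested.

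Across the mock sets themselves an F test called 0 members and 5.53% of all tested genes. With the replicate number as a block it called 8 members and 23.3% of all tested genes.

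**Figure D4:**
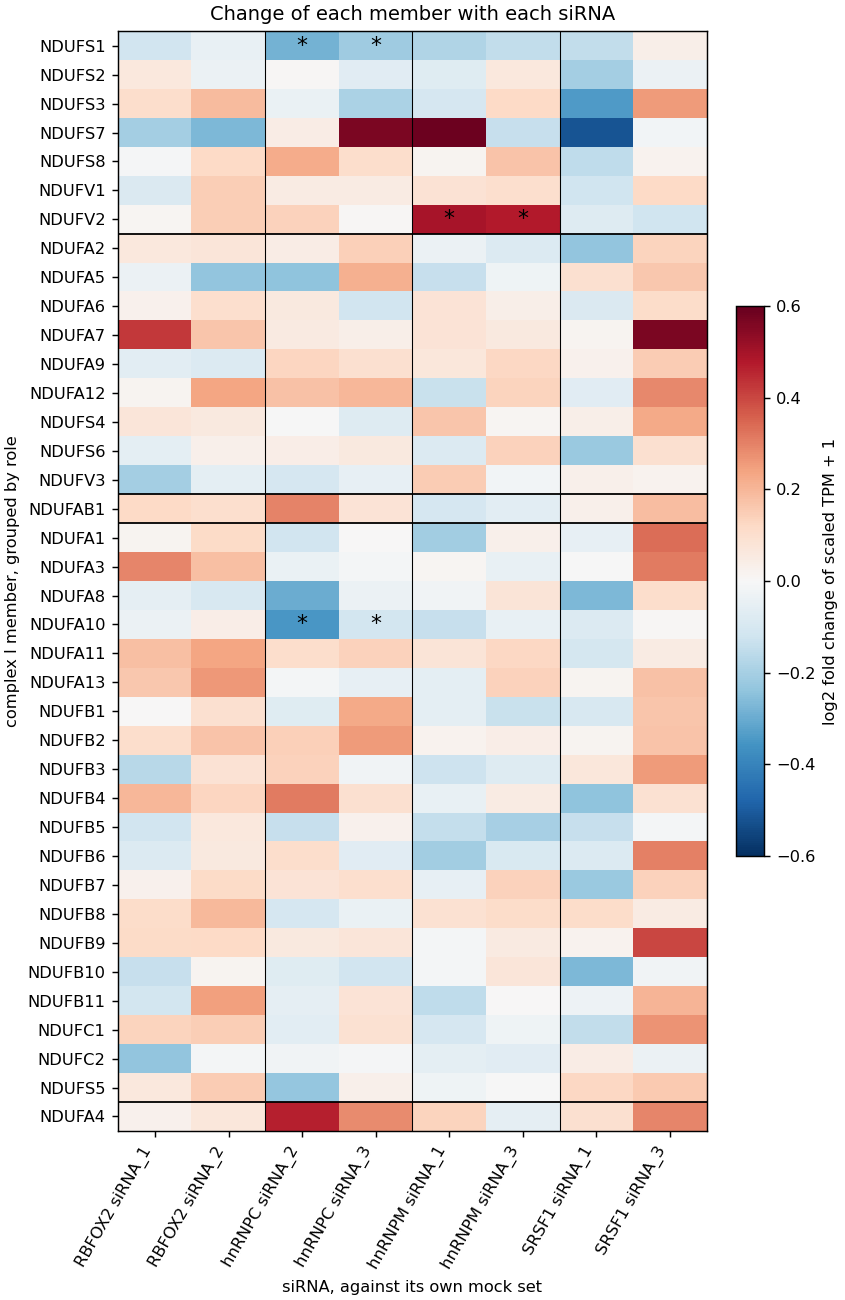
Log2 fold change of each tested member with each siRNA against its own mock set, with members grouped by role and asterisks on both siRNAs of a called change. NDUFV2 after hnRNPM depletion (0.49 and 0.48) and NDUFS1 and NDUFA10 after hnRNPC depletion carry the calls.

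By role, the 7 core subunits held NDUFS1, lowered after hnRNPC depletion, and NDUFV2, raised after hnRNPM depletion. NDUFA10, lowered after hnRNPC depletion, was the single call among the 20 tested membrane-arm accessory subunits. The 9 tested accessory subunits of the matrix arm had none: their changes ran from -0.13 to 0.30 after RBFOX2, -0.08 to 0.19 after hnRNPC, -0.08 to 0.10 after hnRNPM and -0.06 to 0.29 after SRSF1 depletion. The membrane-arm subunits ran from -0.23 to 0.20 after hnRNPC and from -0.14 to 0.21 after SRSF1 depletion. Over all tested genes, 4.34% fell after hnRNPC depletion and 0.359% rose after hnRNPM depletion. The counts of calls by role are too small to tell the roles apart. The 7 subunits encoded in mitochondrial DNA have rows that are listed at 0 in every library, as are all 37 rows with the prefix MT-, so the partner subunits of the nuclear ones were not measured here.

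The assembly factors, which join the subunits into the complex, held 5 calls over 18 tested genes and 4 depletions. The list was drawn up with earlier results of these data known. After SRSF1 depletion 1 of 18 rose and 2 fell, after hnRNPC depletion 1 rose and 1 fell, and after RBFOX2 and hnRNPM depletion 0 did. Over all tested genes, 4.36% rose and 5.01% fell after SRSF1 depletion, and 2.11% rose and 4.34% fell after hnRNPC depletion. The medians were -0.03 and -0.05 after SRSF1 and hnRNPC depletion.

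TIMMDC1, which helps to build the membrane arm, read 20.7 and 23.1 scaled TPM with SRSF1 siRNA_1 against 34.8 and 35.6 in the nov set. With siRNA_3 it read 23.4 and 23.2 against 30.0 and 31.7 in the jan set. Every SRSF1 library lay below all other 20 libraries, the lowest of which read 24.6. The gene fell by 0.53 (SE 0.0532, adjusted p = 3.00e-05), more than any of the 38 members changed after SRSF1 depletion. It stayed called in all 8 fits without a library, and with TPM as deposited the adjusted p was 0.0577.

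NDUFAF2, an assembly factor related to NDUFA12, fell by 0.31 after SRSF1 depletion (SE 0.0815, adjusted p = 0.0262). Its libraries read 17.4 and 13.7 with siRNA_1 against 20.1 and 21.2 in the nov set, and 15.7 and 15.5 with siRNA_3 against 19.9 and 16.95 in the jan set. The call held in 2 of 8 fits without a library. It was lost without jan mock replicate 1 (adjusted p = 0.123), nov mock replicate 1 (0.0508) or 2 (0.0749), siRNA_1 replicate 2 (0.133) and siRNA_3 replicate 1 (0.0668) or 2 (0.0732), and in 4 of 10 other settings. NDUFAF2 also had changes of -0.24, -0.28 and -0.28 after RBFOX2, hnRNPC and hnRNPM depletion, none of them called.

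NDUFAF6 moved in both directions. It fell by 0.31 after hnRNPC depletion (SE 0.0647, adjusted p = 0.00938), with libraries at 4.26 to 5.33 scaled TPM against 5.97 and 6.16 in the oct set. It rose by 0.24 after SRSF1 depletion (SE 0.0528, adjusted p = 0.0109), with libraries at 6.09 to 6.93 against 4.83 to 5.92 in the nov and jan sets. The fall was not called without oct mock replicate 3 (adjusted p = 0.0911), nor the rise without jan mock replicate 1 (0.0591) or SRSF1 siRNA_3 replicate 2 (0.0549). ECSIT, a part of the assembly complex of the membrane arm, rose by 0.41 after hnRNPC depletion (SE 0.101, adjusted p = 0.0236), from 7.55 and 7.08 in the oct set to between 8.77 and 11.7. The RBFOX2 siRNA_1 libraries, at 9.66 and 8.87, lay within that span. The ECSIT call was lost in 4 of 6 fits without a library: hnRNPC siRNA_2 replicate 3 (adjusted p = 0.0717), siRNA_3 replicate 1 (0.0727) and oct mock replicates 1 (0.0759) and 3 (0.163).

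**Figure D5:**
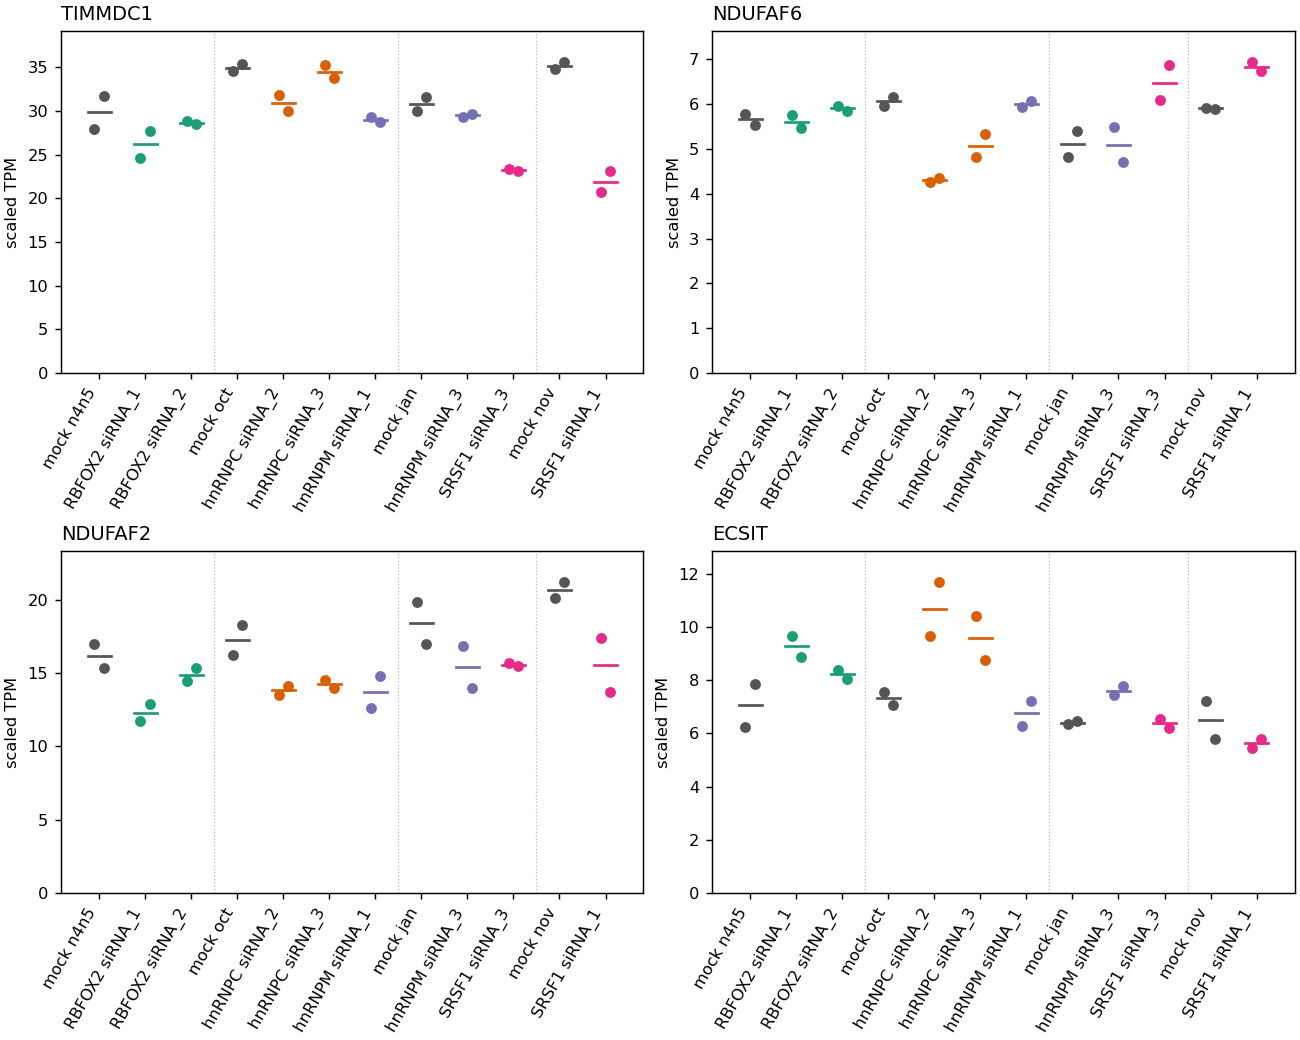
Scaled TPM of the assembly factors TIMMDC1, NDUFAF6, NDUFAF2 and ECSIT in all 24 libraries; points are libraries, bars group means, and dotted lines separate the siRNAs that share a mock set. TIMMDC1 is lowest in the 4 SRSF1 libraries (20.7 to 23.4), and ECSIT in the 4 hnRNPC libraries (8.77 to 11.7) lies above every mock library but overlaps RBFOX2 siRNA_1 (8.87 and 9.66).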

How the data were processed

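The authors deposited 1 table of TPM for 57773 genes in 24 libraries. The submitters' processing notes name TopHat2 2.0.9 and Bowtie2 2.1.0.0 beside build hg19, with SAMtools 0.1.19.0 and, for the reads, Trimmomatic 0.38 and FastQC 0.10.1. The name of the deposited TPM table holds the word coco, and no counting tool is otherwise named in the sources used here. The annotation, gene length and use of strand are not given there. TPM keep no read depth, so no counting interval is given.

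From the deposited TPM, libraries were scaled by median ratios over the 22727 genes above 0 in every library (factors 0.664 to 1.41). The 16994 genes at 1 TPM or more in at least 2 libraries were fitted as log2(scaled TPM + 1) with limma 3.58.1 in R 4.3.3, 12 groups of 2 libraries in 1 fit, and p-values were adjusted by Benjamini-Hochberg over all of them. The pseudocount of 1 understates changes of low genes. Each siRNA was compared with its own mock set, and a depletion is the mean of its 2 siRNAs. Depletions that share a mock set (hnRNPC with hnRNPM, hnRNPM with SRSF1) are not independent. The series calls the replicates biological without saying whether they were separate cultures, so p-values measure only the spread between these libraries.

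Members given by library were NDUFV2, those called, the 2 with the smallest p where a depletion called 0, and the 3 highest and 3 lowest in the mock libraries; of each gene list up to 3 called genes per direction were named. The members and lists were chosen with earlier results of these data known. Alternatives covered scaling, pseudocount, filter, GC content, controls, libraries left out and the replicate number as a block. Deviations from group means of same-numbered libraries correlated across genes at 0.179 to 0.355 in the oct set and 0.151 to 0.211 in the jan set. With n4 and n5 they correlated at 0.0615 to 0.137, and in the single nov pair at 0.431. The fits with the replicate number as a block paired the numbers within all 4 mock sets. The fit was also run on simulated data with independent noise in each library. Those data held neither the correlation of same-numbered libraries nor a GC trend. That run therefore does not show how the calls behave under them. Promoter windows are RefSeq's for GRCh38.p14, and transcripts, copies and overlaps are from GENCODE for GRCh38; no coordinates were converted.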

Additional observations from a re-analysis of the deposited data

Results flagged for a closer look

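The siRNAs against hnRNPC differed for NDUFA10, which read 11.6 and 10.3 scaled TPM with siRNA_2 and 13.1 and 12.98 with siRNA_3. The test of the difference gave an adjusted p of 0.0392 by limma. All 4 depletion effects on NDUFV2 were compared in 1 F test, with an adjusted p of 0.000650 by limma. The hnRNPM effect, 0.49 on the log2 scale, stood apart from 0.08, 0.07 and -0.10 for RBFOX2, hnRNPC and SRSF1.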

How the results depend on the processing

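Members called in the hnRNPC depletion numbered 0 with TPM as deposited, 1 with quantile normalisation, 6 with all 8 mock libraries as control, 0 with its own groups only and 0 to 4 without a library. For the hnRNPC siRNA difference they numbered 0 as deposited, 3 with quantile normalisation, 2 with a filter at 5 TPM, 3 with a GC correction and 0 to 2 without a library. For hnRNPM they numbered 0 as deposited, 2 with all 8 mock libraries and 0 with NDUFV2 summed with its copy. For SRSF1 they numbered 2 with quantile normalisation and 1 with all 8 mock libraries, and for RBFOX2 14 with all 8. With all 8 as control, 10.2% of all tested genes rose and 15.7% fell for hnRNPC, and 0.841% and 1.47% for hnRNPM. For SRSF1 7.96% of all tested genes rose and 7.53% fell, and for RBFOX2 14.3% and 15.1%. The F test across depletions called 0 as deposited, 2 with the GC correction, 0 with the summed copy and 1 to 2 without a library; that across mock sets called 20 as deposited, 2 with the GC correction and 0 to 2 without a library. With the replicate number as a block the counts were 0 for RBFOX2, 3 for hnRNPC, 4 for its siRNA difference, 1 for hnRNPM, 1 for SRSF1, 3 across depletions and 8 across mock sets. The block with the GC correction gave 1 for the RBFOX2 siRNA difference, 5 for hnRNPC, 5 for its siRNA difference, 3 for SRSF1, 5 across depletions and 11 across mock sets. Over all tested genes, the block called 19.3% in the hnRNPC siRNA difference, 23.5% across depletions and 23.3% across mock sets. By depletion, 1.08% rose and 1.05% fell for RBFOX2, and 4.91% and 8.43% for hnRNPC. For hnRNPM 0.806% rose and 1.28% fell, and for SRSF1 8.01% and 8.49%. With the GC correction added, the shares were 23.9% in the hnRNPC siRNA difference, 30.2% across depletions and 20.8% across mock sets. The RBFOX2 siRNA difference then called 8.49% of all tested genes. For hnRNPC 7.17% rose and 8.92% fell, and for SRSF1 10.6% rose and 10.6% fell. Counts under other settings, such as the 20 as deposited, are given here without a share of all tested genes. They are not read as results about the members. The uncalled NDUFV2 change turned to -0.086 after hnRNPC depletion as deposited, to -0.063 after RBFOX2 depletion with all 8 mock libraries, and to -0.00252 after hnRNPC depletion without hnRNPC siRNA_3 replicate 3, within a range of -0.00252 to 0.148 without any 1 library. TPM as deposited shifted the median of all tested genes to 0.21 for RBFOX2 and -0.14 for hnRNPC, and the members' medians to 0.32 and -0.15. The cause of these moves was not tested. With 2 libraries a group, single libraries decide small changes.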

Other observations

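In the rest of the respiratory chain, calls fell only on ATP synthase genes. Of 16 such genes, 2 rose after SRSF1 depletion and 1 fell after hnRNPC depletion. Over all tested genes, 4.36% rose and 5.01% fell after SRSF1 depletion, and 2.11% rose and 4.34% fell after hnRNPC depletion. After RBFOX2 depletion 0.0235% of all tested genes rose and 0.0883% fell, and after hnRNPM depletion 0.359% and 0.677%. Of the genes tested by limma for complex II (4), complex III (8), complex IV (10) and regulators of respiratory chain genes (10), 0 were called in any of the 4 depletions. All 10 nuclear complex IV subunits had a change above 0 after RBFOX2 depletion, with a median of 0.12.

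Among 16 ATP synthase genes, ATPIF1, an inhibitor of ATP hydrolysis by the synthase, fell by 0.54 after hnRNPC depletion (SE 0.111, adjusted p = 0.00894). Its libraries read 60.2 to 79.1 scaled TPM against 103.6 and 99.5 in the oct mock set. That call was lost without oct mock replicate 1 (adjusted p = 0.0699) or 3 (0.0610). It rose by 0.36 after SRSF1 depletion (SE 0.0906, adjusted p = 0.0204), where the siRNA_1 libraries overlapped the nov set. This call was lost in 5 of 8 fits without a library: jan mock replicate 2 (adjusted p = 0.0746), nov mock replicate 1 (0.0838), siRNA_1 replicate 2 (0.0904) and siRNA_3 replicates 1 (0.0646) and 2 (0.0519). ATP5G3, which encodes subunit c of the rotor, was called after SRSF1 depletion at 0.19 (SE 0.0530, adjusted p = 0.0361). Its siRNA_1 libraries, at 13.6 and 12.8 scaled TPM, lay between the nov mock libraries at 14.0 and 11.8, while the siRNA_3 libraries, at 12.9 each, lay above the jan set at 9.82 and 10.1. The call held in 1 of 8 fits without a library, that without nov mock replicate 1 (0.24, adjusted p = 0.0106), and in the others the adjusted p ran from 0.0635 (without siRNA_1 replicate 2) to 0.139 (without nov mock replicate 2).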
